A study of Mus musculus with 2 samples.

Results

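The genes described here encode 10 subunits of the BAF (SWI/SNF) chromatin remodelling complex, namely subunits of its embryonic stem cell form, known as esBAF, and paralogues of these: Smarca4, Smarca2, Smarcb1, Smarcc1, Smarcc2, Smarcd1, Arid1a, Arid1b, Smarce1 and Actl6a. They were chosen by name, from what is known of the complex, among 21911 protein-coding genes, and all 10 were found in the annotation. Trimethylation of lysine 36 of histone H3 (H3K36me3) was measured by ChIP-seq, in which chromatin carrying the mark is precipitated with an antibody and its DNA sequenced, in E14TG2a.4 cells with no treatment given in the labels, a male embryonic stem cell line of the 129/Ola mouse strain, labelled as embryonic with an age of 3.5 days. The study holds 2 biological replicates of this 1 line, with no second condition. Only called peaks were analysed, so the read depth behind each value is unknown, and the spread given is that between the 2 replicates.

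BAF uses ATP to slide or evict nucleosomes. One of 2 alternative ATPases, Smarca4 (BRG1) or Smarca2 (BRM), drives it, a core of Smarcc, Smarcb1, Smarcd and Smarce1 proteins holds it together, Actl6a forms an actin-related module on the ATPase, and Arid1a or Arid1b anchors the form known as canonical BAF. The embryonic stem cell form is known for using Smarca4, Smarcc1, Smarcd1, Arid1a and Actl6a, whereas Smarca2, Smarcc2 and other paralogues are known from differentiated cells. H3K36me3 is laid down by the methyltransferase Setd2, which travels with elongating RNA polymerase II, and therefore usually lies over the bodies of transcribed genes; RNA itself was not measured.

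Replicate 1 had 107779 peaks over 139 Mb and replicate 2 had 98185 peaks over 127.0 Mb. The covered share of a gene is the percentage of bases of its annotated body (GENCODE M21, build mm10) that lie in a replicate's peaks, and a gene was called marked when this share reached 10% in both replicates. The cell type label was checked against marker genes. All 9 embryonic stem cell markers were marked, with mean shares of 35.4 to 82.0%, while all 7 markers of fibroblast feeder cells and all 4 of endoderm had no covered base. None of 4 mesoderm markers and 2 of 5 neural markers, Pax6 and Tubb3, were marked. The mesoderm marker Eomes had 14.1% in replicate 2 alone, and the neural marker Neurod1 had 18.7% in replicate 1 alone. Of all protein-coding genes, 37.2% were marked and 50.1% had no covered base in either replicate.

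Of the 10 genes, 8 were marked, against 37.2% of all protein-coding genes. The exceptions were Smarca2, with no covered base in either replicate, and Arid1b, with 3.21% in replicate 1 and 2.41% in replicate 2. In 6 genes at least 75% of the body was covered in each replicate, a level that 8.13% of all protein-coding genes reached. The median over the 10 genes was 78.2% in replicate 1 and 76.1% in replicate 2, whereas the median protein-coding gene was at 0 in both. Among marked genes alone the medians of the list were 79.8% and 77.1%, and those of all marked protein-coding genes were 57.1% and 52.9%. The list was chosen with results of these data known, so these counts and medians describe it and carry no test.

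**Figure D1:**
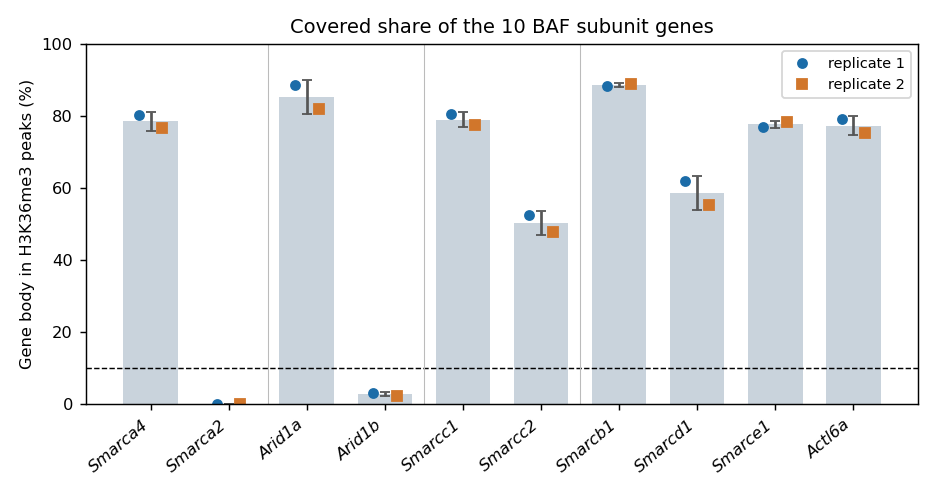
Percentage of each gene body in H3K36me3 peaks for the 10 BAF subunit genes, with paralogue pairs side by side. Bars are means, error bars the SD of the 2 replicates, points the single replicates and the dashed line the 10% threshold; Smarca2 and Arid1b lie below the line, and the other 8 genes have means from 50.2 to 88.6%.

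Smarcb1, the core subunit lost in rhabdoid tumours, was the most covered, with 88.2% and 89.0% in replicates 1 and 2 (88.6% ± 0.566, SD, n = 2), followed by Arid1a with 88.6% and 81.9% (85.3% ± 4.75). The ranges of these genes overlapped, so their order is not set by the data. Smarcc1 (79.0% ± 2.12), Smarca4 (78.5% ± 2.62), Smarce1 (77.7% ± 0.924) and Actl6a (77.4% ± 2.74) lay close together, and none of these neighbours differed beyond the spread between replicates. Smarcd1 (58.7% ± 4.80) and Smarcc2 (50.2% ± 3.37) were the lowest of the marked genes, and their replicate ranges did not overlap. This order depended on the processing. With peaks within 3 kb joined, Smarcc2 stood at 84.0% and Smarcd1 at 84.1%, above Smarca4 (83.7%) and Actl6a (82.3%), and on the longest coding transcript Smarcc1 (88.5%) and Actl6a (86.6%) stood above Arid1a (85.2%). Over the 8 marked genes, the replicates differed by 0.801 to 6.79 percentage points, with a median of 3.79, and replicate 1 was the higher in 6 of the 8, as in 68.8% of all marked protein-coding genes. Each difference between paralogues given below is set against this spread. Between 2 genes with 2 replicates each, a two-sided exact permutation test cannot give a p below 0.333, so none is reported.

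The ATPase genes differed in full: Smarca4 was covered and Smarca2 was not. Smarca4 lies on the plus strand at chr9:21616169-21704230 and spans 88.1 kb. Its covered share was 80.4% in replicate 1 and 76.7% in replicate 2, or 70.8 and 67.5 kb, in 19 peaks in each. Smarca2 lies on the plus strand at chr19:26605050-26778322, spans 173 kb and held 0 peaks in both. Smarca4 exceeded Smarca2 by 78.5 ± 2.62 points (SD, n = 2), far more than the replicates differed. Most of the body of Smarca4 was covered in long peaks, the widest being 14.8 kb in replicate 1 and 23.8 kb in replicate 2. The fold enrichment over background that the authors' peak caller gave to its highest peak was 14.01 and 18.6.

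Smarca2 was empty in each of the 7 peak sets examined, including the unthresholded sets of each replicate, which keep weaker peaks. The nearest peak lay 1058 kb to its left in both replicates, and 604 kb to its right. In the unthresholded sets the nearest peak on the right was closer, at 466 kb in replicate 1 and 532 kb in replicate 2. The peak-free span common to both replicates was 1835 kb long. It wholly contained 6 protein-coding genes, of which Smarca2 was 1, beside the Dmrt3 and Dmrt2 transcription factor genes and the lipoprotein receptor gene Vldlr. In the peak sets of the main values, Smarca2 was among the 6.92% of protein-coding genes with no peak within 500 kb, which the unthresholded set of replicate 1 does not bear out. No covered base at all was common, at 50.1% of all protein-coding genes and 46.9% of those of at least 100 kb. Of the 32-base words sampled from Smarca2, 95.3% occur once in the genome, against 92.9% in Smarca4. The word length was a choice, as the read length is unknown.

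A pair of matching exons shows how far the ATPase genes can be told apart by sequence. Exon 19 of Smarca4 (chr9:21667166-21667408) and exon 18 of Smarca2 (chr19:26681871-26682113), both on the plus strand of mm10, code for part of the ATPase domain. They are 243 bases long and match at 204 positions (84.0%), and the longest stretch without a difference is 14 bases. Capitals mark the 39 positions at which they differ.
Smarca4 exon 19: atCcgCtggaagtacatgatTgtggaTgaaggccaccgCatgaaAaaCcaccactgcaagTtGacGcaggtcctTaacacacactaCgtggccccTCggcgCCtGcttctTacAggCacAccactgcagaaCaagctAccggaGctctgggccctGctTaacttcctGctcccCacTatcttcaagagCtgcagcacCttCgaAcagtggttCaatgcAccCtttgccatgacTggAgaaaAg
Smarca2 exon 18: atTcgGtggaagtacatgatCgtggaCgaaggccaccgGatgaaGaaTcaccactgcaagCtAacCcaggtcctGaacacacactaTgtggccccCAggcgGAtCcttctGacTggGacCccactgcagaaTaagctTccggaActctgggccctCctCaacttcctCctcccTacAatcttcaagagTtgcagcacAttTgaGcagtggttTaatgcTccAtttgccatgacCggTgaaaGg
All bases of the Smarca4 exon lay in peaks in both replicates, and none of the Smarca2 exon did.

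The starts of the ATPase genes did not differ in this way. Both lacked the mark, and both were rich in CpG. In the RefSeq promoter table (build GRCm38.p6), the 250 bases before the start held 25 CpG in Smarca4 and 28 in Smarca2, against a median of 6 over 32851 promoters. Of the 10 genes, 9 were in that table, and all 9 had a CpG-rich promoter (observed over expected CpG of at least 0.6 and at least 50% G and C), a property of 31.0% of the promoters listed. The 140 bases before the first annotated transcript are shown for both, on the plus strand, with CpG (the letters CG, the same on both strands) in capitals, from chr9:21616029-21616168 for Smarca4 and chr19:26604910-26605049 for Smarca2.
Smarca4 upstream: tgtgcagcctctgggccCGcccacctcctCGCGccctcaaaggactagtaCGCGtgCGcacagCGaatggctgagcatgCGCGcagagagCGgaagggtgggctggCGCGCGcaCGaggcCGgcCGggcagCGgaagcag
Smarca2 upstream: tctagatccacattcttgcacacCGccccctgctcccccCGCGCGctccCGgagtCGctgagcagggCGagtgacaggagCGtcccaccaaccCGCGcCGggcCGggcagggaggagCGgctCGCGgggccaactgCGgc
These stretches held 17 and 16 CpG, and no base of either lay in a peak.

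**Figure D2:**
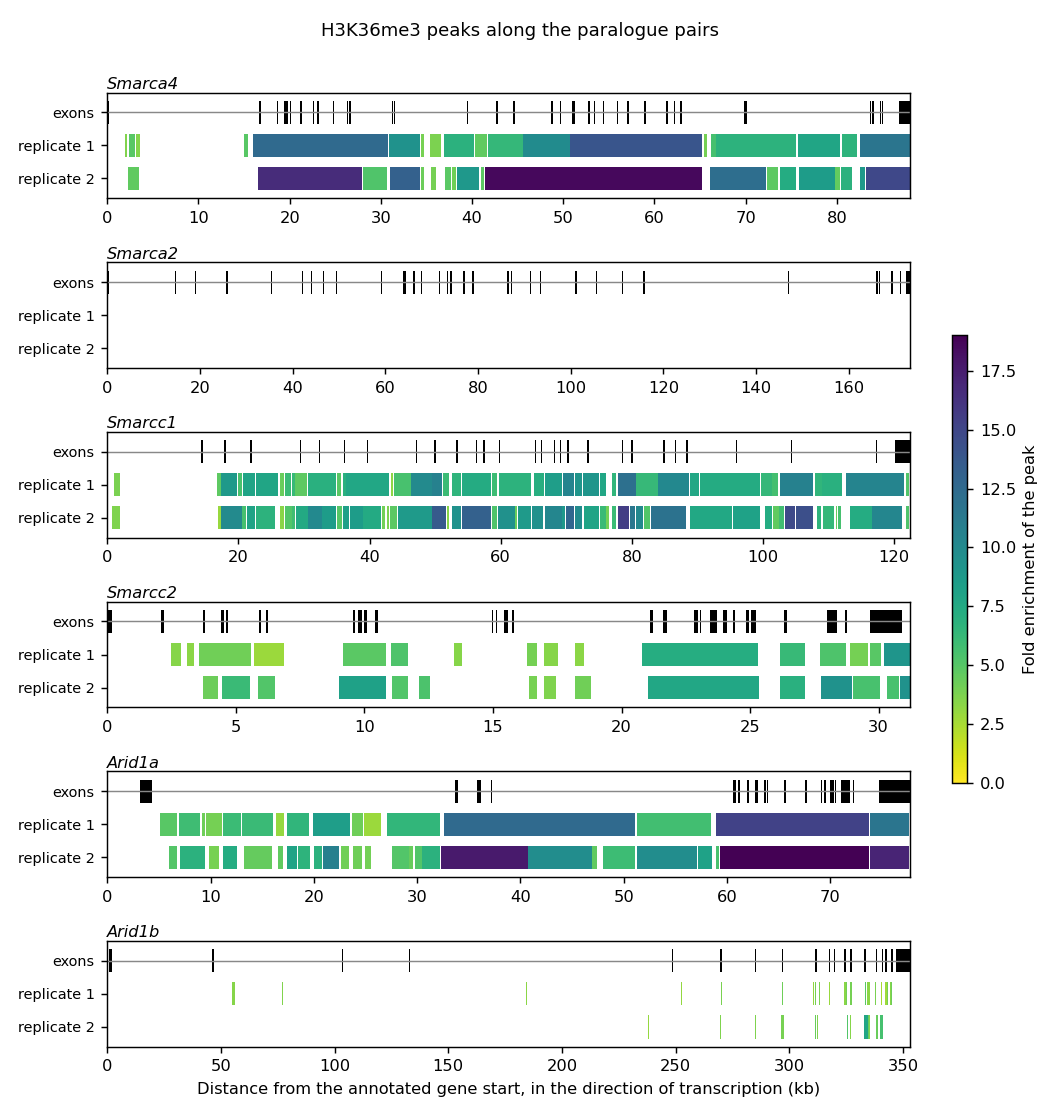
H3K36me3 peaks along the Smarca4 and Smarca2, Smarcc1 and Smarcc2, and Arid1a and Arid1b gene bodies, by distance from the annotated start in kb. Black boxes are exons of the main coding transcript (drawn at a minimum width), coloured boxes are peaks cut to the gene body in each replicate, and the colour is the peak's fold enrichment; Smarca2 is empty, and Arid1b holds thin peaks, mostly near its 3′ end.

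The ARID subunit genes, whose proteins bind DNA with an AT-rich interaction domain and exclude each other in the complex, differed as widely. Arid1a lies on the minus strand at chr4:133679008-133756769 and spans 77.8 kb. Peaks took up 88.6% of it in replicate 1 (68.9 kb) and 81.9% in replicate 2 (63.7 kb). Arid1b lies on the plus strand at chr17:4994332-5347656 and spans 353 kb, and 11.3 and 8.51 kb of it were covered. The difference in covered share was 85.4 points in replicate 1 and 79.5 points in replicate 2 (82.4 ± 4.19, SD, n = 2), far beyond the spread between replicates.

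Arid1b was not empty. It held 23 peaks in replicate 1 and 14 in replicate 2, but they were thin and weak: the widest was 1.31 and 1.61 kb, against 18.5 and 14.5 kb in Arid1a, and the highest fold was 4.95 and 7.82, against 15.3 and 19.0. The peaks gathered towards the 3′ end. The last 20% of the gene held the centres of 17 of the 23 peaks in replicate 1 and of 12 of the 14 in replicate 2, which made up 76.8% and 87.0% of the covered bases. Even there, 12.3% and 10.5% of the bases were covered. The first peak began 54.9 kb from the start in replicate 1 and 238 kb in replicate 2. Such length is unusual, and of 566 protein-coding genes of at least 300 kb, 2.47% were marked and 62.0% had no covered base. Since the cells were measured in bulk, fewer cells carrying the mark and less mark per cell cannot be told apart.

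The exons of Arid1b were covered to a higher share than its introns, although most of the covered bases were intronic. In replicate 1, 14.7% of exon bases and 2.78% of intron bases were covered, and in replicate 2 the shares were 10.6% and 2.11%, a ratio of 5.16 ± 0.182 (SD, n = 2). Within the last 50% of the body alone, the ratio was 4.56 ± 0.378. Exons held 16.4% and 15.7% of the covered bases, and 10 of 23 and 7 of 14 peaks touched one. Of the 20 exons of its main coding transcript, 5 were covered over at least 50% of their length in both replicates (exons 8, 9, 13, 15 and 17), and 7 lay outside peaks in both (exons 1 to 5, 11 and 20). Which bases were covered was not well shared. Of all bases covered in at least 1 replicate, 22.8% were covered in both, whereas this share ran from 78.9% to 97.6% in the 8 marked genes. The strongest Arid1b peak of replicate 2 is one that replicate 1 also has. Around its summit, 200 bases at chr17:5327707-5327906 (plus strand, mm10) cover the end of exon 15, whose 115 coding bases are in capitals, and the start of the next intron, in lower case. All 200 bases lay in peaks in both replicates.
Arid1b peak window: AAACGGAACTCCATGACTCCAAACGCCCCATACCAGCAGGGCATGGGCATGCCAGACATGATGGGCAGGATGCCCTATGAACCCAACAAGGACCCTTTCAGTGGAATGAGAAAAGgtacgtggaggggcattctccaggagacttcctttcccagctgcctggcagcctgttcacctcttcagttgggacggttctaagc

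Exon 11 of Arid1a (chr4:133691070-133691279, minus strand) and exon 12 of Arid1b (chr17:5318641-5318850, plus strand) match over their whole 210 bases at 154 positions (73.3%), with capitals at the 56 that differ. Of wholly coding exons of equal length, from 60 to 300 bases, this pair had the most matching bases. The Arid1a exon was in peaks in both replicates and the Arid1b exon in replicate 1 alone.
Arid1a exon 11: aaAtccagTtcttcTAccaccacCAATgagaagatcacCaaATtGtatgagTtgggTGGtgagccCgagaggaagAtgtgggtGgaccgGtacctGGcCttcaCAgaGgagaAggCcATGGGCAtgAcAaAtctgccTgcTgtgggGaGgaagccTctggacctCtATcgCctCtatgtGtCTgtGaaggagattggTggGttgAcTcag
Arid1b exon 12: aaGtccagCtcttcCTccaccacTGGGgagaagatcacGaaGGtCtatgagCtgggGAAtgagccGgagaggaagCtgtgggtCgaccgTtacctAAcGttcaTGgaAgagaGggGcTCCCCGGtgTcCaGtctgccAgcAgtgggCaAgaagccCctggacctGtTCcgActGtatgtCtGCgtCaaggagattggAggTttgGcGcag
The longest stretch the exons share is 11 bases.

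The Smarcc genes encode the scaffold proteins on which the complex is built, as pairs of the same or of different paralogues. Unlike the pairs above, both were marked. Smarcc1 lies on the plus strand at chr9:110117708-110240178 and spans 122 kb. Its covered share was 80.5% in replicate 1 and 77.5% in replicate 2. Smarcc2 lies on the plus strand at chr10:128459248-128490482 and spans 31.2 kb, with 52.6% and 47.9%. Smarcc1 was higher by 27.9 points in replicate 1 and 29.6 points in replicate 2 (28.8 ± 1.24, SD, n = 2), many times the spread between replicates. The size of this difference rested on how peaks were called and joined: it was 16.9 points in the set called on pooled replicates, 18.0 points in a set of replicated peaks from another processing run of the authors, and 3.88 points when peaks within 3 kb of each other were joined. Its direction was the same in each. With joined peaks, its size lay within the 0.801 to 6.79 points by which the replicates of the marked genes differed.

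The difference between the Smarcc genes was largest in the middle of the body. The middle of 3 equal parts was covered to 89.9% and 89.8% in Smarcc1 and to 26.1% and 27.5% in Smarcc2, a difference of 63.1 ± 1.10 points. Smarcc1 was higher by 8.03 and 19.8 points in the 5′ part, which includes 14.3 kb before its RefSeq start, and by 11.8 and 6.86 points in the 3′ part. Smarcc2 had 16 and 15 peaks, the widest of 4.52 and 4.30 kb, with uncovered stretches between them. Exons 12 to 15 lay outside peaks in both replicates, while exons 3 to 11 and 16 to 26 were each covered over at least 75% of their length in both. The difference was larger over introns than over exons: Smarcc1 exceeded Smarcc2 by 33.7 ± 1.84 points over intron bases and by 10.1 ± 3.35 points over exon bases. Of the 32-base words sampled, 89.2% occur once in the genome in Smarcc1 and 92.2% in Smarcc2.

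In the matching exon pair shown here, both Smarcc genes carried the mark. Exon 20 of Smarcc1 (chr9:110196153-110196411) and exon 20 of Smarcc2 (chr10:128482684-128482942), both on the plus strand, match at 203 of 259 positions (78.4%), with capitals at the 56 that differ. This pair was picked by the same rule as that of the ARID genes, without regard to coverage. Both exons were covered throughout, in both replicates.
Smarcc1 exon 20: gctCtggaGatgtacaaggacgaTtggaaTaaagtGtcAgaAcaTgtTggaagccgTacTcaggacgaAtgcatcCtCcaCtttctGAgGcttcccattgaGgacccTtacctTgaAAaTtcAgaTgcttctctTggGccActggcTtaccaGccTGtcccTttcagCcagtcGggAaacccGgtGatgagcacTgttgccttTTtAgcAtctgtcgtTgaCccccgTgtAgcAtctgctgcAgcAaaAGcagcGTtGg
Smarcc2 exon 20: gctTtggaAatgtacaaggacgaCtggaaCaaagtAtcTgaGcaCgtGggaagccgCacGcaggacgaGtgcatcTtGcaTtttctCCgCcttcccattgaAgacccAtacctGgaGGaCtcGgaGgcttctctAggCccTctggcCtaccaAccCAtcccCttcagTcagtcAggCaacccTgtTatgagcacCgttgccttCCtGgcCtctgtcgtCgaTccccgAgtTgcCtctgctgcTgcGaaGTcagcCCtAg
No stretch longer than 14 bases is the same in both.

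The remaining subunit genes are smaller and were all marked. Smarcb1, at chr10:75896769-75921617 on the minus strand (24.8 kb), held 6 peaks in each replicate, and its 3′ part was covered throughout in both. Its replicates were the most alike of the 9 genes with peaks, with 97.6% of the bases covered in either shared by both. Actl6a, which encodes the actin-related subunit of stem and progenitor cells, lies at chr3:32706298-32726973 on the plus strand (20.7 kb). Its share was 79.3% in replicate 1 and 75.4% in replicate 2, in 5 peaks each. Smarce1, whose protein carries an HMG DNA-binding domain, lies at chr11:99209047-99231017 on the minus strand (22.0 kb) and was covered to 77.1% and 78.4%.

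Smarcd1, which links the complex to transcription factors, is the shortest of the 10 genes, at chr15:99702129-99713991 on the plus strand (11.9 kb). Its shares were 62.1% in replicate 1 and 55.3% in replicate 2, the largest difference between replicates among the marked genes. The replicates parted most in its 5′ part, with 28.6% in replicate 1 against 4.55% in replicate 2, while its 3′ part had 91.4% and 96.6%. Another protein-coding gene on the opposite strand, Gm17349, overlaps 3315 bases of it. The antisense gene Gm34939 and the pseudogene Gm17241 overlap 1313 and 252 bases. On the bases that no other gene overlaps, the covered share of Smarcd1 was 79.8%.

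For the average fold enrichment, each base was given the single fold of its peak, and bases outside peaks counted as 0. The average over the whole body therefore combines the fold of the peaks with their extent. Its median over the 8 genes was 6.95 in replicate 1 and 8.33 in replicate 2, and that of all marked protein-coding genes was 3.55 and 4.11. Arid1a was highest in replicate 1 with 8.87, and Smarcb1 in replicate 2 with 11.8. Smarca4 stood at 8.08 and 10.7. Smarcc2 was lowest of the marked genes in both, with 2.88 and 3.24, and Arid1b was at 0.116 and 0.118. Smarcc2 was low within its peaks too: the average of its peak folds, weighted by covered bases, was 5.47 and 6.76, against 8.02 and 8.98 in Smarcc1.

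Along the gene, the mark rose from the 5′ to the 3′ part in all 8 marked genes and in both replicates, which was also the case in 85.0% of marked protein-coding genes of at least 3 kb. Over the 8 genes, the median rise between these parts was 35.4 points in replicate 1 and 40.6 points in replicate 2 (38.0 ± 3.67, SD, n = 2), and over all such genes it was 35.8 and 37.7 points. In Smarca4 the 5′ part was covered to 51.9% and 47.6%, the middle to 94.4% and 91.3% and the 3′ part to 94.9% and 91.2%. Most of its first intron, which ends at exon 2, 16.6 kb from the start, lay outside peaks. Smarcb1 had the most even profile, from 76.1% and 78.2% in the 5′ part to 100% in the 3′ part. Smarcc2 alone had its lowest part in the middle in both replicates.

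**Figure D3:**
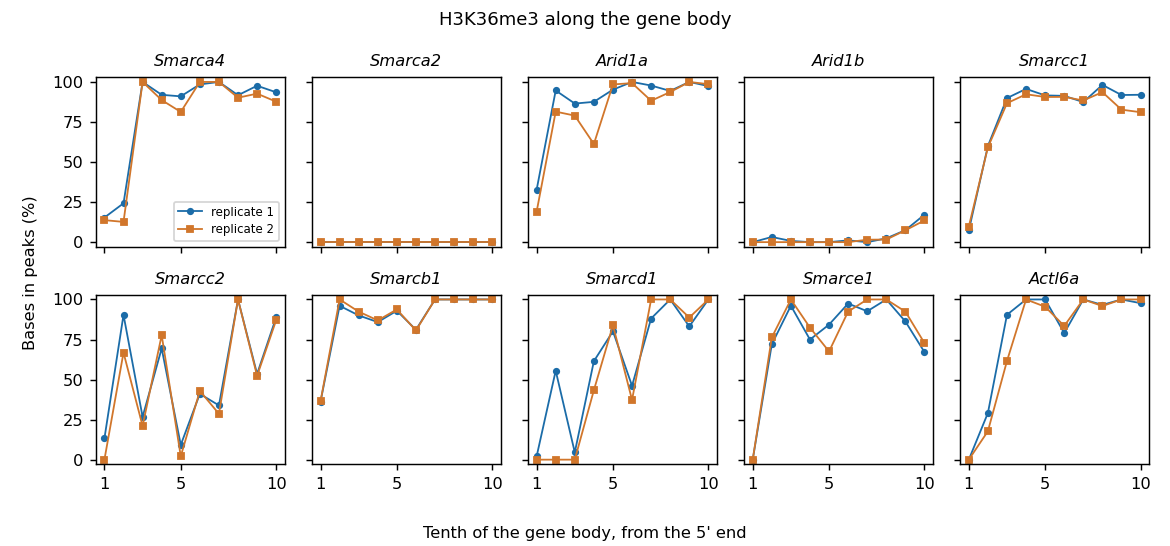
Percentage of bases in peaks in 10 equal parts of each BAF subunit gene body, from the 5′ to the 3′ end, with 1 line per replicate. Coverage is low in the first part and high towards the 3′ end in the 8 marked genes, dips in the middle of Smarcc2, and reaches 17.1% in replicate 1 and 13.6% in replicate 2 in the last part of Arid1b.

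No gene start carried the mark. In all 10 genes, marked or not, the 500 bp on either side of the annotated start held no covered base in either replicate, and the same was true of 95.6% of marked protein-coding genes of at least 3 kb. The first covered base of the marked genes lay from 1.02 kb (Smarcc1) to 5.09 kb (Arid1a) from the start in replicate 1, and from 0.715 kb (Smarcc1) to 5.97 kb (Arid1a) in replicate 2. These distances depended on how the onset was defined: the first 2 kb window with at least 50% of its bases covered began 15.8 kb from the start of Smarcc1 in replicate 1 and at its start in replicate 2, and 0.6 kb from the start of Smarcb1 in both. The annotations place some starts differently: the RefSeq start lies 14.3 kb into the annotated body of Smarcc1 and 2.25 kb into that of Actl6a. Measured on the span of the longest coding transcript, the covered share of Smarcc1 was 88.5% and that of Actl6a 86.6%.

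The flanks differed between genes. No base within 5 kb upstream was covered in 5 of the 8 marked genes, against 68.4% of marked protein-coding genes of at least 3 kb, nor in Smarca2 and Arid1b. The exceptions have neighbours there, but so do genes with no covered base upstream, such as Smarce1 with Krt222. Upstream of Smarcb1, where the matrix metalloproteinase gene Mmp11 lies within 5 kb, 82.2% and 79.2% were covered. Upstream of Smarcc1, where the gene for the RNA helicase Dhx30 overlaps the body by 123 bases, the shares were 49.3% and 48.8%, and upstream of Smarcd1 they were 5.44% and 4.38%. Downstream, the median over the 8 marked genes was 40.3% and 35.5%, and that of all marked protein-coding genes of at least 3 kb was 22.6% and 19.2%. Actl6a was highest with 93.3% and 94.4%, where Mrpl47, a mitochondrial ribosomal protein gene, overlaps its end by 1577 bases, while Smarce1 had no covered base there. The part that neighbouring genes have in these flanks was not tested.

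Exons were covered more than introns in both replicates in 5 of the 8 marked genes, near the 67.8% of marked protein-coding genes of at least 3 kb with introns. The ratio of the covered share of exons to that of introns had a median of 1.06 in both replicates, against 1.22 and 1.30 over all such genes. It was highest in Smarcc2, where exons were covered to 76.1% and 74.1% and introns to 47.6% and 42.2% (ratio 1.68 ± 0.110), and next in Smarca4 (1.25 ± 0.0459) and Smarcd1 (1.24 ± 0.00299). Actl6a alone had exons covered less than introns in both replicates, with exons at 62.6% and 58.0% and introns at 83.2% and 79.4% (0.741 ± 0.0154). In Arid1a and Smarce1 the direction differed between the replicates. In the last 50% of the body the ratio of Actl6a was 1.06, and those of Smarcc1 and Smarce1, which were 1.08 and 1.01 over the whole body, were 0.992 and 0.914. There the ratio of Smarca4 was 1.06, while those of Smarcc2 and Smarcd1 were 1.62 and 1.18.

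Exon by exon, coverage was nearly complete in the strongly marked genes. At least 50% of the exon lay in peaks in both replicates in 33 of 34 exons of Smarca4, 26 of 28 of Smarcc1, 19 of 20 of Arid1a, 13 of 14 of Actl6a, 9 of 11 of Smarce1 and 8 of 9 of Smarcb1. The first exon was uncovered in each of them. Smarcc2 had 21 of 28 such exons, Smarcd1 had 7 of 13, Arid1b had 5 of 20 and Smarca2 had 0 of 33.

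**Figure D4:**
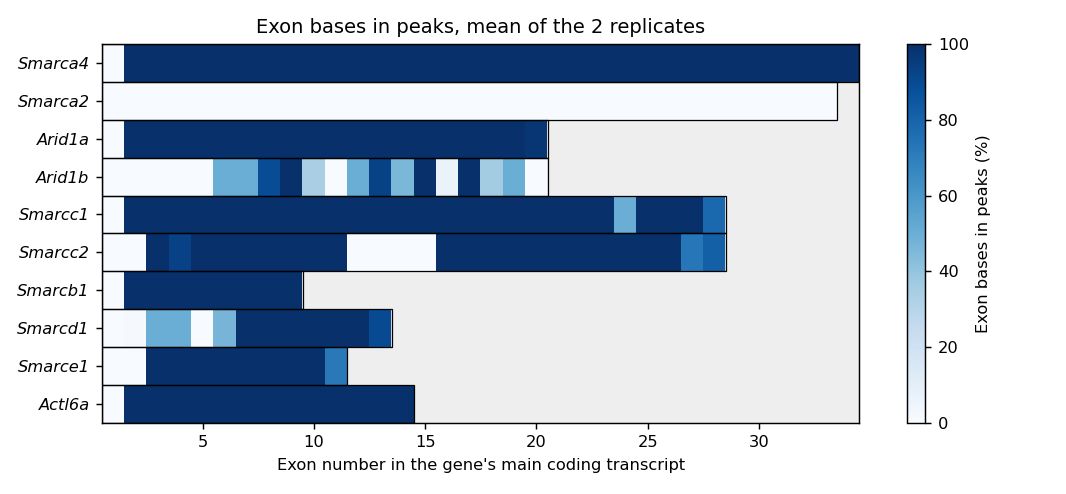
Percentage of each exon in peaks, as the mean of the 2 replicates, by exon number in the main coding transcript of each BAF subunit gene. Dark cells are covered exons, white cells uncovered ones and grey lies past the last exon; exon 1 is white in all 10 genes, and Smarcc2 has a white gap at exons 12 to 15.

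A further 21 genes encode subunits of BAF and of its relatives PBAF and ncBAF, which use other targeting subunits. Of these, 14 of 21 were marked, against 37.2% of all protein-coding genes, and the median covered share was 43.2% in replicate 1 and 42.2% in replicate 2, against 0 for all protein-coding genes. The highest were Brd7, a bromodomain subunit of PBAF, with 84.8% and 85.9%, Brd9, the bromodomain subunit of ncBAF, with 76.9% and 73.2%, Bcl7b, a small accessory subunit, with 79.5% and 70.9%, and Dpf2, a PHD finger subunit of BAF, with 72.9% and 69.1%. At the other end, Actl6b and Dpf3, subunits known from neurons and muscle, and Bcl11b, a zinc finger factor of T cells and neurons, had no covered base in either replicate. Bcl11a, a related zinc finger factor, had 0% and 1.20%. Dpf1 (6.60% and 14.7%) and Bcl7c (7.93% and 8.42%), named after their values were seen, also missed the threshold.

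**Figure D5:**
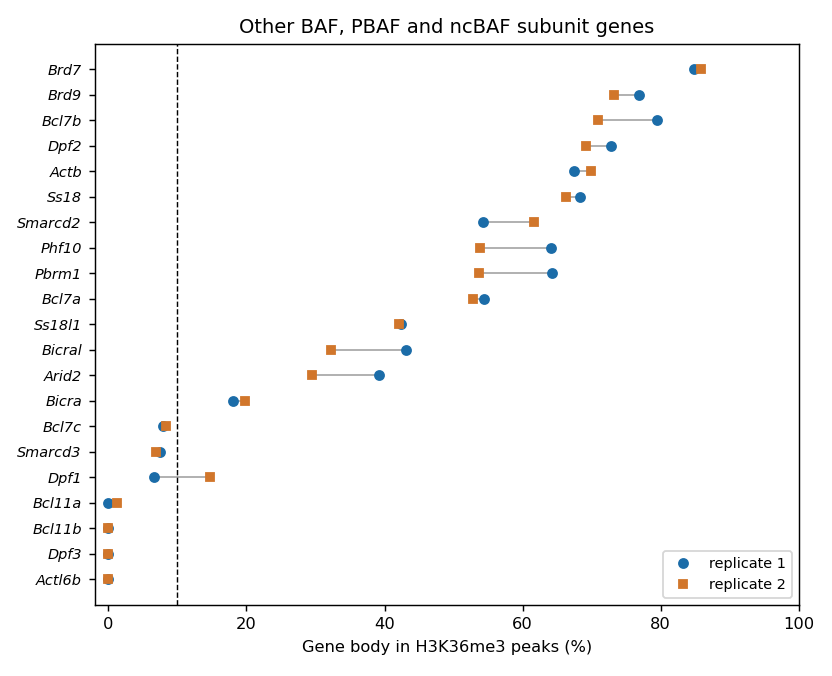
Percentage of the gene body in H3K36me3 peaks for 21 other BAF, PBAF and ncBAF subunit genes, ordered by the lower of the 2 replicates. Circles are replicate 1, squares replicate 2, and the dashed line is the 10% threshold, which 14 genes pass in both replicates.

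The paralogues of Smarcd1 and Actl6a extended the comparison. Actl6b, the neuronal counterpart of Actl6a, lay 77.4 ± 2.74 points below it (SD, n = 2). Smarcd3, known from heart and neurons, had 7.44% in replicate 1 and 6.84% in replicate 2, and lay 51.6 ± 4.37 points below Smarcd1. The RefSeq start of Smarcd3 lies 22.4 kb into its annotated body of 33.6 kb, and all its covered bases lay past that start. The last of 3 equal parts was covered to 22.3% and 20.5%, so its low share depends on the span used. The share from the RefSeq start was not computed. Smarcd2, known from myeloid cells, had 54.3% and 61.6%. Smarcd1 was 7.79 points higher than Smarcd2 in replicate 1 and differed by −6.33 points in replicate 2, so this pair did not differ beyond the spread between replicates (mean difference 0.732 ± 9.98). This pair was compared on whole annotated bodies only. The RefSeq start of Smarcd2 lies 5.34 kb into its body of 9.79 kb. On bases that no other gene overlaps, Smarcd1 stood at 79.8%, a value not computed for Smarcd2.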

How the data were processed

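The deposited files hold peaks that the authors called on mm10, per the labels and the accompanying file lists. Which aligner and peak caller were used, and how many reads were sequenced, is not given in the sources used here. The main values come from each replicate's own peaks supported by pseudoreplicates (random divisions of its reads). Each deposited peak has a fold (a ratio over background) and a q-value written by the authors as −log10. The files are in the narrow peak format, per the labels' file lists, and hold a broad mark as many peaks, so covered bases were used. Depth limits what can be called and is unknown, and the cells are of another strain than the reference genome.

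Covered shares were computed with Python 3.11.15, numpy 2.4.6 and pandas 2.3.3 from whole GENCODE M21 gene spans, with exons merged over transcripts, and tested on simulated data. Exon numbers follow the main coding transcript. Promoters came from the RefSeq table. The members and lists were chosen with earlier results of these data known. Named genes were all 10 members, of the 21 other subunit genes the 4 highest and 4 lowest by the lower replicate, paralogues of members, and genes that overlap a member or lie within 5 kb. Neural and mesoderm markers with peaks, and genes in the peak-free span around Smarca2, were named as well. A peak set on another build and a pooled unthresholded set were not used.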

Additional observations from a re-analysis of the deposited data

How the results depend on the processing

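No paired analysis was possible because the series has 1 group, so no groups share replicate numbers. The count of 8 marked genes was the same under each alternative run except a threshold of 50% of the body, which Smarcc2 missed (7 genes). The Smarca4 difference from Smarca2 was 81.8 points in the pooled set, 82.4 and 81.3 points in the sets of peaks found in both replicates of the main and the other run, and 83.7 points with peaks joined within 3 kb; without 1 replicate it was 76.7 to 80.4 points. The Smarcc1 difference from Smarcc2 was 20.4 points in the unthresholded sets, 16.9 points in the pooled set, 19.7 and 18.0 points in the sets found in both replicates, 33.3 points with −log10 q of at least 5, 38.2 points on the longest coding transcript and 3.88 points with joined peaks; without 1 replicate it was 27.9 to 29.6 points. The Arid1a difference from Arid1b was 87.1 points with joined peaks, and 79.5 to 85.4 points without 1 replicate. The median rise between the 5′ and 3′ ends of the body was 32.8 points in the unthresholded sets, 30.3 points in the pooled set, 31.2 and 31.3 points in the sets found in both replicates, 30.9 points on the longest coding transcript and 32.7 points with joined peaks; without 1 replicate it was 35.4 to 40.6 points. No direction changed, except in the ratio of exons to introns, which crossed 1 in the last 50% of the body of Smarcc1 (0.992), Smarce1 (0.914) and Actl6a (1.06). Joining adds the gaps between peaks by construction. The cause of the other shifts above was not tested. Over all alternatives, Arid1b stayed between 1.67 and 6.04% and Smarca2 at 0, while Smarcc2 ran from 45.2 to 84.0% and Smarcd1 from 55.3 to 84.1%. The onset moved beyond the replicate spread in 6 of the 8 marked genes when taken from 2 kb windows. A window needs only 50% of its bases covered, so by construction it can start before the first covered base. Of the 6 genes, Smarcc1 alone moved to a later onset, from 0.867 to 7.9 kb.

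Unknown depth limits the reading of uncovered bases: a base outside peaks is one where no enrichment was called, and weaker enrichment there was not measured. With 2 replicates of 1 line, each SD rests on a single difference.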
